A study of Mus musculus with 4 samples.

Results

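Regions in a pair of CC chemokine gene clusters on mouse chromosome 11 were described here for trimethylation of histone H3 on lysine 4 (H3K4me3), mapped by chromatin immunoprecipitation and sequencing in macrophages. In the mm9 genome build the first window, given for Ccl2, Ccl7 and Ccl12, runs from 81840000 to 82000000, and the second, given for Ccl5, Ccl9, Ccl6, Ccl3 and Ccl4, from 83330000 to 83490000. Members were all deposited peaks that overlap a window, 43 of 64314 peaks summed over 4 lists, and after peaks that overlap between lists were joined they formed 14 regions of 18786 in the genome.

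The macrophages were primary cells grown from bone marrow and taken on day 7 of differentiation, from mice whose background was 6% 129/Ola and 94% C57BL/6. The groups were Wbp7-/- cells with 10 ug/ml lipopolysaccharide (LPS) for 4 h, untreated Wbp7-/- cells, Wbp7+/- cells with 10 ug/ml LPS for 4 h and untreated Wbp7+/- cells. The controls thus also lack 1 copy of the gene, and no wild-type cells are among the groups. Each group held 1 library, so differences below rest on single libraries and carry no p-value. How the deletion was made and how many mice gave each library are not stated in the labels, and macrophage identity was not checked against marker genes, since no gene annotation of mm9 was used. The first line of the list of LPS-treated Wbp7+/- cells names 24 h where its label gives 4 h, which leaves it unsure how long those cells were treated. The count of regions with peaks after LPS alone is also given without that list, while the comparisons of LPS-treated Wbp7+/- cells with another group need it and carry that doubt.

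CC chemokines are small secreted proteins that guide leukocytes through receptors of the G protein-coupled family. Ccl2, Ccl7 and Ccl12 attract monocytes through Ccr2. Ccl3, Ccl4 and Ccl5 act on T cells, natural killer cells and monocytes, while Ccl6 and Ccl9 are rodent chemokines made by myeloid cells. LPS, a bacterial cell wall component, binds Tlr4 and strongly induces several of these genes in macrophages through NF-kappaB and interferon signalling. H3K4me3 marks active promoters. Wbp7, also called Kmt2b, is one of the enzymes that deposit it, and has a zinc finger that binds DNA with unmethylated CpG.

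The gene table used here belongs to a later build (GRCm38.p6), so no region is tied to a single gene and the table gives only the order of genes. In the first cluster that order along the chromosome is Ccl2, Ccl7, Ccl11, the long non-coding RNA gene Gm38913, Ccl12, Ccl8 and Ccl1. In the second it is Ccl5, the pseudogene Ccl16-ps, Ccl9, the long non-coding RNA gene E230016K23Rik, Ccl6, the long non-coding RNA gene Gm38933, the pseudogene Rpl9-ps1, Ccl3 and Ccl4. Regions are therefore named by position, A1 to A3 in the first window and B1 to B11 in the second. A region of either window may belong to a gene that is not a member, such as Ccl1, Ccl8, Ccl11 or Gm38913 in the first cluster and E230016K23Rik or Gm38933 in the second.

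RefSeq (GRCm38.p6) upstream sequences were matched for 4 of the 8 member genes, Ccl12, Ccl9, Ccl6 and Ccl3, and not for Ccl2, Ccl7, Ccl5 and Ccl4. The 250 bases before each gene start are shown because the content of CpG and of a TATA box differs between kinds of promoter that carry H3K4me3. They are written 5′ to 3′ on the strand of the gene, and their GRCm38.p6 positions cannot be set against the mm9 positions of the peaks. Capitals mark matches, on either strand, to TATAAA and to the NF-kappaB consensus.
Ccl12 upstream, chr11:82101595-82101844, plus strand: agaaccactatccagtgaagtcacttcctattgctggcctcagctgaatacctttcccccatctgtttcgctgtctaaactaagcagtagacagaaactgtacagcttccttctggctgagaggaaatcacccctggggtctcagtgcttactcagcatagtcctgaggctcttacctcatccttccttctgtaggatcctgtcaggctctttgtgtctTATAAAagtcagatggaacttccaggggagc
Ccl9 upstream, chr11:83578637-83578886, minus strand: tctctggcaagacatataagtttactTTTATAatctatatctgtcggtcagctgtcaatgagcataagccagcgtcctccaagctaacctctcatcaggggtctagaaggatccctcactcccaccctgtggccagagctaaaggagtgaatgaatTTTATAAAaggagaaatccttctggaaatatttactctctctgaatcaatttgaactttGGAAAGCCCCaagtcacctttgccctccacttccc
Ccl6 upstream, chr11:83593088-83593337, minus strand: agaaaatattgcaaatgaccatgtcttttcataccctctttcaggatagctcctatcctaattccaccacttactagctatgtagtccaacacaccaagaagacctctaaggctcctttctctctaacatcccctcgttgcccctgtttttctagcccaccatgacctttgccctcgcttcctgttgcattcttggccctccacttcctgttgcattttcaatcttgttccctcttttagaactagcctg
Ccl3 upstream, chr11:83649379-83649628, minus strand: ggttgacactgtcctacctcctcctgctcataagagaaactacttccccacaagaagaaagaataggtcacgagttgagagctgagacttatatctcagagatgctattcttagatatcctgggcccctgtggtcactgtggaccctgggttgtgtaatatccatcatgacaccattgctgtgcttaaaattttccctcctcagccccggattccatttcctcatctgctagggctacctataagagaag

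All 4 sequences are poor in CpG. The upstream sequence of Ccl12 held 1 CpG, and those of Ccl9, Ccl6 and Ccl3 held 2 each, whereas the median over 32851 RefSeq promoters was 6. Of those promoters, 29.0% held at most 2, so a low count is common. TATAAA stood 31 to 26 bases before the start of Ccl12, on the strand of the gene, and 92 to 87 bases before that of Ccl9, where matches on the other strand lay at 94 to 89 and 224 to 219. It matched in 12.4% of all promoters on either strand. The only match to the NF-kappaB consensus among the 4 was in Ccl9, 35 to 26 bases before the start on the opposite strand, and 7.25% of all promoters held one. GAGGAA, also searched, the core of many PU.1 sites, matched in Ccl12 at 130 to 125 bases and, on the opposite strand, in Ccl3 at 33 to 28 bases, against 23.3% of all promoters. These are matches of letters in a window, not measured binding.

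The deposited lists held 15086 peaks in LPS-treated and 14599 in untreated Wbp7-/- cells, against 17313 in LPS-treated and 17316 in untreated Wbp7+/- cells. Each peak carries a score that the authors' peak caller gave, and 54.8 to 62.0% of the peaks of a list stood at a score of 3100 or above, called the ceiling here. Read numbers are not given in the files, so the depth behind a missing peak is unknown, and a missing peak says only that the caller's threshold was not reached. Whether scores below the ceiling are on the same scale in different lists is not known, so no difference in score is computed between lists, and sorting regions by their highest score in any list gives rough classes. The width of a peak also depends on depth and enrichment. A larger number of marked cells and more mark per cell cannot be told apart.

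In the second window H3K4me3 peaks covered more sequence after LPS, to nearly the same extent in both genotypes. In Wbp7-/- cells the peaks of this window covered 26389 bp with LPS and 12436 bp untreated, a ratio of 2.12. In Wbp7+/- cells they covered 27122 bp with LPS and 12799 bp untreated, also a ratio of 2.12. Over whole lists the same ratio was 1.01 in each genotype. The number of peaks was 10 with LPS and 5 untreated in Wbp7-/- cells, and 12 with LPS and 6 untreated in Wbp7+/- cells.

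In the first window the difference lay between the genotypes. With LPS the peaks covered 10616 bp in Wbp7-/- cells and 5500 bp in Wbp7+/- cells, a ratio of 1.93. In untreated cells they covered 6666 bp in Wbp7-/- cells and 3863 bp in Wbp7+/- cells, a ratio of 1.73. The whole lists gave 0.971 with LPS and 0.970 untreated. LPS over untreated was 1.59 in Wbp7-/- cells and 1.42 in Wbp7+/- cells there, mostly through a single region that had a peak with LPS alone. Genotype ratios of the second window were 0.973 with LPS and 0.972 untreated.

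**Figure D1:**
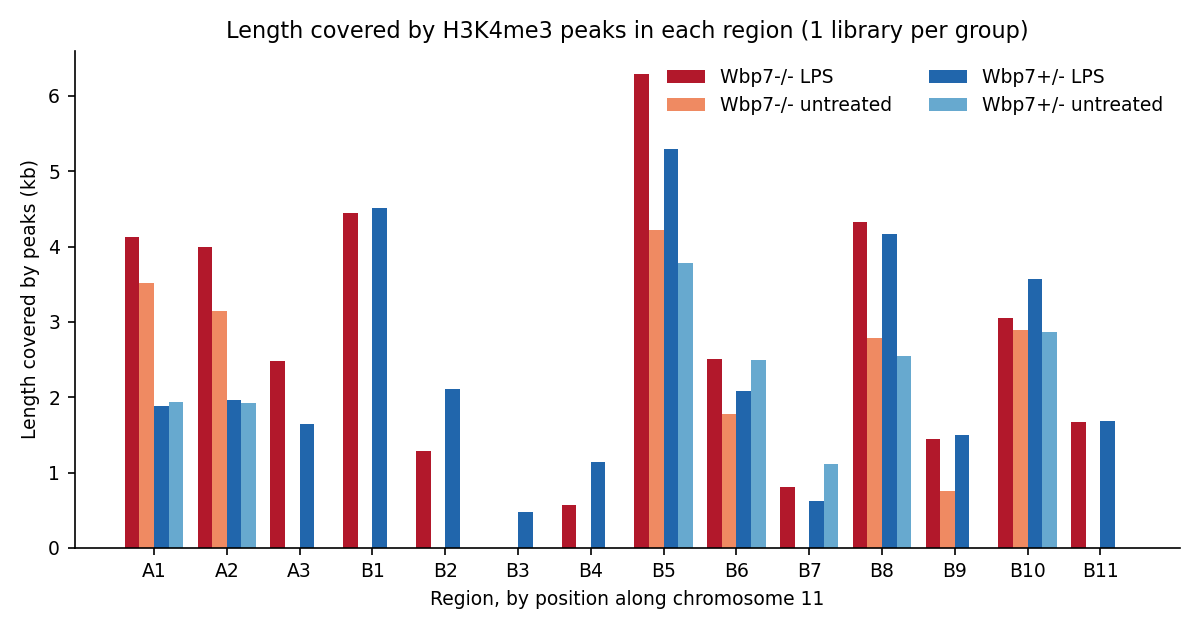
Length in kb covered by H3K4me3 peaks in each of the 14 regions, by position, with a bar for each library. No bar means no peak in that list. A1 and A2 stand at 3.1 kb or more in both Wbp7-/- libraries and under 2.0 kb in both Wbp7+/- libraries, and A3, B1, B2, B4 and B11 have bars in the LPS libraries alone.

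Of the 14 regions, 6 had a peak in every list (A1, A2, B5, B6, B8 and B10) and 5 in both LPS lists alone (A3, B1, B2, B4 and B11). Over the genome 65.4% of regions had a peak in every list, and 1.75%, or 329, in both LPS lists alone. Among regions at the ceiling in any list that last share was 0.170%, and 1 of 6 in the windows (B1) was of this kind. For highest scores from 500 to below the ceiling it was 3.06% and 3 of 4 (A3, B2 and B11), and under 500 it was 3.77% and 1 of 4 (B4). B7 and B9 had peaks in 3 lists and B3 in 1. No region had a peak in both Wbp7+/- lists alone, a class of 10.9% of all regions, nor in both Wbp7-/- lists alone (2.07%). No region was found in both untreated lists alone (0.820%). With 14 regions a count of 0 allows a share of up to 21.4%, so these absences set no contrast with the genome. The same holds for the counts of 0 given below for 14 or fewer regions. Without the LPS-treated Wbp7+/- list, the same 5 regions were in the list of LPS-treated Wbp7-/- cells and in neither untreated list. Of the regions of the other 3 lists, 3.65% were. Omitting that list could only add regions to these 5, so that they remained was fixed beforehand and does not bear on the treatment time.

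A1, from 81848895 to 81853119, the region nearest the start of the first window, was wider in Wbp7-/- cells in both treatments. Its peak in Wbp7-/- cells was 4133 bp wide with LPS and 3517 bp untreated. The Wbp7+/- cells had 1888 bp with LPS and 1942 bp untreated. Both Wbp7-/- values lay above both Wbp7+/- values, an arrangement whose share over the genome was not counted. The Wbp7-/- peaks were at the ceiling, whereas the Wbp7+/- peaks scored 959.24 with LPS and 1166.63 untreated. Wbp7-/- over Wbp7+/- was 2.19 with LPS, exceeded by 93 of the 12294 regions with a peak in every list, and 1.81 untreated, exceeded by 137.

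A2, from 81858817 to 81862920, lay less than 6 kb further along and showed the same arrangement. Its peak was 3998 bp wide with LPS and 3149 bp untreated in Wbp7-/- cells. The Wbp7+/- peaks measured 1967 bp with LPS and 1921 bp untreated. Again both Wbp7-/- widths lay above both Wbp7+/- widths, with no share counted over the genome. The score was at the ceiling in both Wbp7-/- lists and at 1070.71 with LPS and 1076.52 untreated in Wbp7+/- cells. The ratio of Wbp7-/- to Wbp7+/- was 2.03 with LPS, exceeded by 132 regions, and 1.64 untreated, exceeded by 213.

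The added width of A1 and A2 lay on the side of higher coordinates. Wbp7-/- peaks began 26 to 181 bp further out than Wbp7+/- peaks at the lower edge. At the upper edge the Wbp7-/- peak of A1 ended 2219 bp further out with LPS and 1501 bp further out untreated, and that of A2 1948 bp and 1047 bp. A lower edge that stayed within 250 bp and an upper edge moved by 1 kb or more, or the reverse, were found with and without LPS at 48 of 12294 regions (0.390%), A1 and A2 among them. This measure and its limits were chosen after the values were seen.

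**Figure D2:**
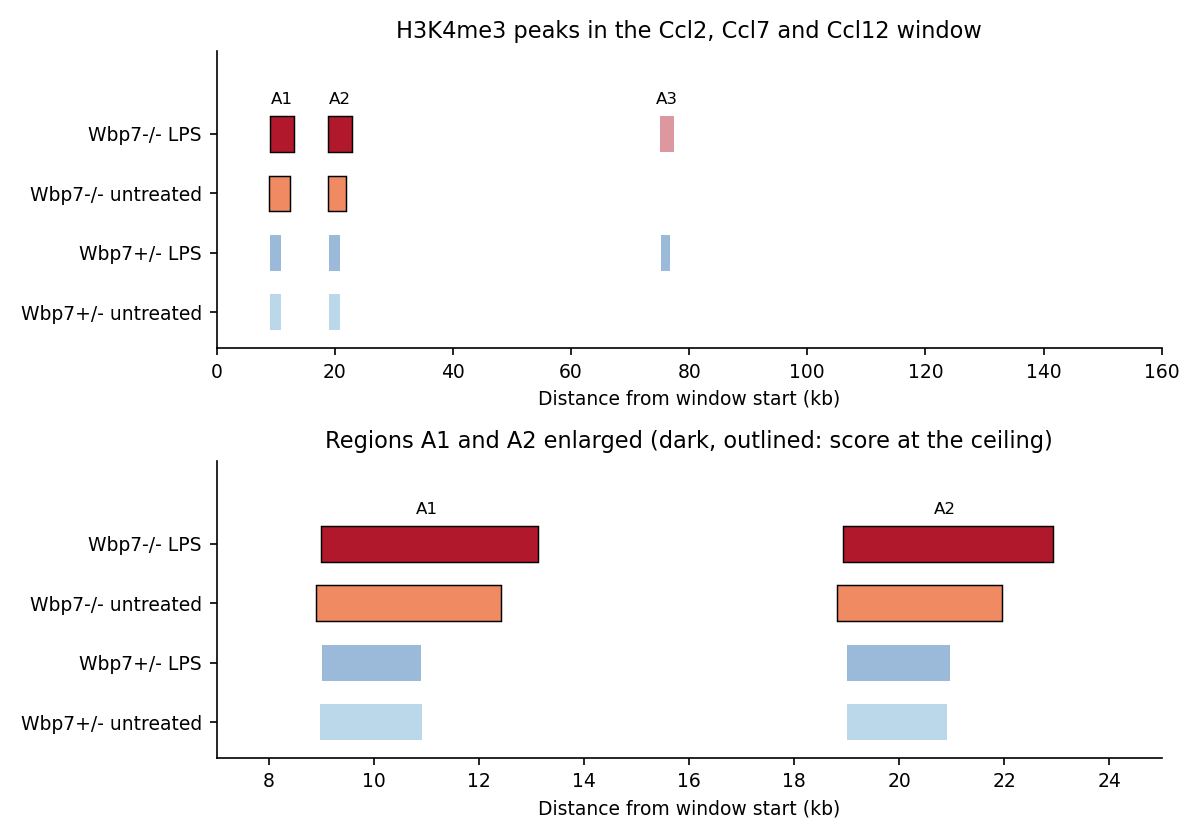
Peaks of the Ccl2, Ccl7 and Ccl12 window in each library, at distances in kb from the window start, over the whole window (top) and around A1 and A2 (bottom). Outlined bars are at the score ceiling. In A1 and A2 the 4 bars begin close together at the lower edge, and the Wbp7-/- bars reach at least 1.0 kb further at the upper edge.

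A 1.5-fold greater covered length was used to call a region wider. Of regions with a peak in both lists, 4.07% were called wider in Wbp7-/- than in Wbp7+/- cells with LPS, and in the windows 3 of 13 were, A1, A2 and A3. Untreated the genome gave 4.17% and the windows 2 of 6, A1 and A2. Narrower calls with LPS numbered 2 of 13, B2 and B4, where the genome gave 5.35%, and untreated 0 of 6, where it gave 4.49%. No peak was present in Wbp7-/- cells alone with LPS (6.24% over the genome), and B3 was missing there (18.8%). Untreated, B9, which stands 8 bp after B8, was present in Wbp7-/- cells alone (5.54%) and B7 was missing there (18.5%). Counting width and presence together, 3 of 14 regions were wider or gained in Wbp7-/- cells with LPS (9.29%) and 3 of 14 narrower or lost (22.8%). Untreated these were 3 of 8 (8.71%) and 1 of 8 (21.9%). A1 and A2 were wider with and without LPS, as were 155 regions (1.26%) of those with a peak in every list, and none of the 6 was narrower in both, as 2.11% of all were. A score at the ceiling with and without LPS in Wbp7-/- cells, and below it in both Wbp7+/- lists, was found at 76 regions (0.618%), against 482 (3.92%) for the reverse. Both properties, wider and at the ceiling in Wbp7-/- cells alone, were met by 11 regions of 12294 (0.0895%), of which A1 and A2 are 2. The combination was not planned and repeats what was described at A1 and A2, so their place in this class was fixed by its definition. It also sets scores of different lists side by side, whose scales may differ.

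LPS over untreated at A1 was 1.18 in Wbp7-/- cells and 0.972 in Wbp7+/- cells, and at A2 1.27 and 1.02. The median over the 12294 regions was 0.979 in Wbp7-/- cells and 0.976 in Wbp7+/- cells. In the Wbp7-/- libraries the upper edge lay 708 bp further out with LPS at A1 and 955 bp at A2. In the Wbp7+/- libraries each edge of A1 and A2 lay at most 54 bp from its untreated place. With a single library for each genotype and treatment, the difference in response was not tested.

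A3, from 81915008 to 81917492, had no peak in either untreated list. Its peak was 2485 bp wide with a score of 739.26 in LPS-treated Wbp7-/- cells, and 1645 bp wide with a score of 128.74 in LPS-treated Wbp7+/- cells. The ratio of 1.51 lies just past the fold used. Among the 329 regions of this class the Wbp7-/- peak ranked 25 in width and the Wbp7+/- peak 81. With A3, all 3 regions of the first window were wider in Wbp7-/- cells after LPS. To any extent, 62.0% of the regions with a peak in every list were wider there, and 42.9% of the 329.

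B1, from 83339644 to 83344609, was the widest region with a peak only after LPS. It measured 4445 bp in Wbp7-/- cells and 4515 bp in Wbp7+/- cells with LPS, at the ceiling in both, and it had no peak in either untreated list. Its width ranked 7 among the 329 regions in each genotype, and it was 1 of 9 of them at the ceiling in both LPS lists. The 2 peaks overlapped over 3994 bp. The Wbp7-/- peak lay further along, its lower and upper edges 521 bp and 451 bp beyond those of the Wbp7+/- peak, so the similar widths cover slightly shifted stretches.

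B2, from 83346307 to 83348410, followed less than 2 kb after B1, again with a peak after LPS alone. It was 1288 bp wide with a score of 403.86 in Wbp7-/- cells, and 2104 bp with 624.66 in Wbp7+/- cells. B3, from 83348468 to 83348942, was found in LPS-treated Wbp7+/- cells alone, with a width of 475 bp and a score of 61.58. It stands 57 bp from B2 and is the only region of the windows found in a single list. B4, from 83363543 to 83364681, was covered over 572 bp in Wbp7-/- cells and 1137 bp in Wbp7+/- cells with LPS, with scores of 170.26 and 181.02. B2 and B4 were thus narrower in Wbp7-/- cells, at ratios of 0.612 and 0.503, which is opposite to A3. Over the 329 regions the median ratio of Wbp7-/- to Wbp7+/- was 0.954, and 141 were wider in Wbp7-/- cells.

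B11, from 83478679 to 83480371, was the last region with LPS peaks alone and was nearly equally wide in the genotypes. It covered 1671 bp in Wbp7-/- cells with a score of 1067.59, and 1682 bp in Wbp7+/- cells in 2 peaks that scored 56.07 and 967.1. It begins 71 bp after B10, a region with a peak in every list. With peaks joined within 1 kb, B10 and B11 form a single region whose covered length was 1.63-fold greater with LPS in Wbp7-/- and 1.83-fold in Wbp7+/- cells.

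**Figure D3:**
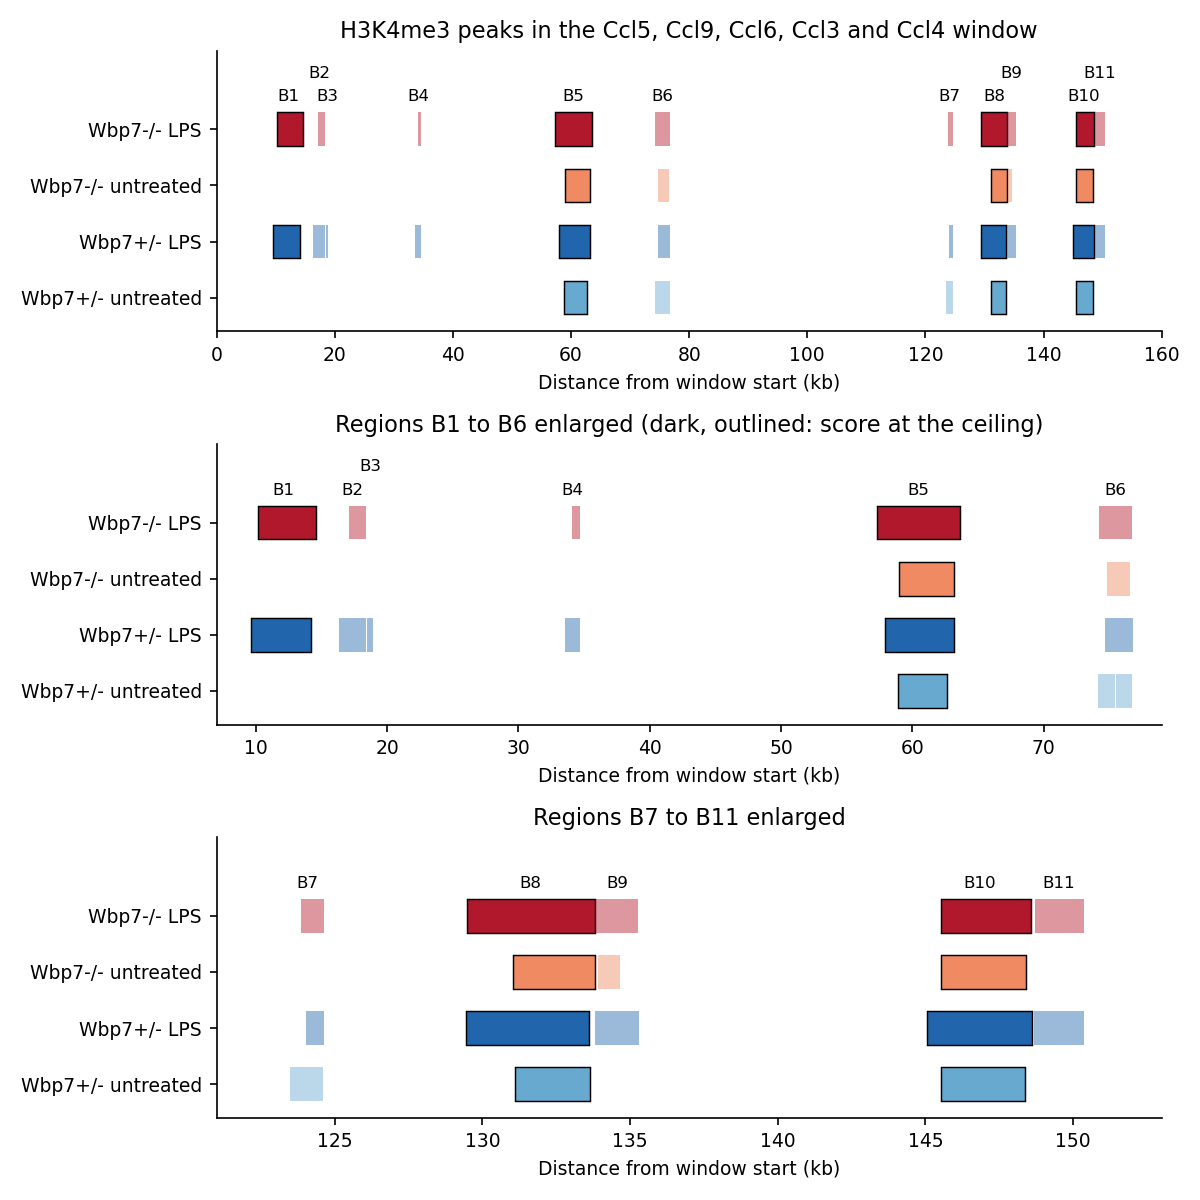
Peaks of the Ccl5, Ccl9, Ccl6, Ccl3 and Ccl4 window in each library, at distances in kb from the window start, over the whole window (top) and around B1 to B6 and B7 to B11. Outlined bars are at the score ceiling. B1, B2, B4 and B11 have bars in both LPS libraries and in neither untreated library, and the bars of B8 extend to lower coordinates with LPS.

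Regions that had a peak only after LPS were counted per stretch of the size of a window. In the second window B1, B2 and B4 began 9.6, 16.3 and 33.5 kb from the window start, whereas B11 began at 148.7 kb, near the other end. Dividing the genome into bins of 160 kb, the size of a window, left 6723 bins with a region, and 3 of them held 4 or more of the 329 regions. The second window held 4. One of these is B11, which begins 71 bp after B10 and becomes part of a region with a peak in every list when peaks within 1 kb are joined. Joining left 4 regions with LPS peaks alone over both windows, where the main count was 5. Without joining, 14 bins held 3 or more. The bins have fixed edges while the window was chosen with these results known, so the numbers are a description.

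B5, from 83387324 to 83393608, was the widest region of both windows and was at the ceiling in all lists. Its width in Wbp7-/- cells was 6285 bp with LPS, wider than 98.3% of that list, and 4219 bp untreated. In Wbp7+/- cells it measured 5289 bp with LPS, wider than 96.9% of that list, and 3775 bp untreated. The LPS peaks were the wider ones in both genotypes, with ratios of 1.49 in Wbp7-/- cells and 1.40 in Wbp7+/- cells, both below the fold used for calls. The lower edge reached 1651 bp further out with LPS in Wbp7-/- cells and 992 bp in Wbp7+/- cells, and the upper edge 415 bp and 522 bp, so that B5 was extended on both sides.

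B8, from 83459434 to 83463813, was also at the ceiling in all lists, and its called peak was extended on 1 side. It measured 4331 bp with LPS and 2787 bp untreated in Wbp7-/- cells, a ratio of 1.55. Its Wbp7+/- peaks measured 4171 bp with LPS and 2548 bp untreated, a ratio of 1.64. The lower edge reached 1544 bp further out in Wbp7-/- cells and 1668 bp in Wbp7+/- cells, while the upper edge was in the same place in Wbp7-/- and 45 bp further in for Wbp7+/- cells. B9, which begins 8 bp after B8, was also wider with LPS in Wbp7-/- cells and gained in Wbp7+/- cells. With peaks joined within 1 kb, B8 and B9 form a single region, with LPS ratios of 1.63 in Wbp7-/- and 2.22 in Wbp7+/- cells. The upper edge of B8 thus depends on where the peaks were split. B8 was the only region with a peak in every list that was called wider with LPS in both genotypes, as 199 of the 12294 (1.62%) were. A shift of 1 edge by 1 kb or more with the other within 250 bp was seen in both genotypes at 118 regions (0.960%), B8 among them. As at A1 and A2, this measure was chosen after the values were seen, and B8 meets it with B9 counted apart.

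B10, from 83475045 to 83478607, at the ceiling in all lists, differed less with LPS when taken without B11. It measured 3048 bp with LPS and 2892 bp untreated in Wbp7-/- cells. Wbp7+/- cells had 3563 bp with LPS and 2862 bp untreated. The untreated widths of the genotypes differed by 30 bp, and the LPS peak was wider in both genotypes, by ratios of 1.05 in Wbp7-/- cells and 1.24 in Wbp7+/- cells. Joined with B11, which begins 71 bp further along, the ratios were 1.63 and 1.83, so the smaller difference depends on where peaks were split.

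B6, B7 and B9 were below the ceiling in every list where they had a peak. B6, from 83404165 to 83406777, covered 2504 bp with LPS and 1779 bp untreated in Wbp7-/- cells. In Wbp7+/- cells it covered 2076 bp with LPS and, in 2 peaks, 2500 bp untreated. Its highest scores were 138.39 with LPS and 217.01 untreated in Wbp7-/- cells, and 220.02 with LPS and 691.97 untreated in Wbp7+/- cells. LPS widths were thus above untreated widths in Wbp7-/- and below them in Wbp7+/- cells.

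B7, from 83453480 to 83454649, was covered by 801 bp of peak with LPS in Wbp7-/- cells and had none there untreated. Wbp7+/- peaks there were 616 bp wide with LPS and 1114 bp untreated. Its scores of 74.94 to 170 were each above no more than 19.3% of their list. B9, from 83463822 to 83465315, stands 8 bp after B8. It measured 1444 bp with LPS and 759 bp untreated in Wbp7-/- cells, and 1494 bp with LPS in Wbp7+/- cells, which had no untreated peak there. It scored between 58.31 and 95.82. Both LPS peaks of B9 were wider than the single untreated peak.

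Counted together, peaks were gained with LPS at 6 of 13 regions in Wbp7-/- cells (A3, B1, B2, B4, B7 and B11), where the genome gave 7.61%, and at 7 of 14 in Wbp7+/- cells (A3, B1, B2, B3, B4, B9 and B11), where it gave 7.95%. No peak was lost with LPS in either genotype, where the genome gave 5.87% and 6.64%, and a count of 0 among so few regions sets no contrast. Of regions with a peak in both lists, 2 of 7 were called wider in Wbp7-/- cells (B8 and B9) and 1 of 7 in Wbp7+/- cells (B8), beside 3.64% and 4.33% of all regions. The only narrower call with LPS was B7 in Wbp7+/- cells (2.34% of all regions, and 2.39% in Wbp7-/- cells). Width and presence together gave 8 of 13 regions wider or gained with LPS in Wbp7-/- cells (10.8% of all) and 8 of 14 in Wbp7+/- cells (11.6%). Narrower or lost were 0 of 13 in Wbp7-/- cells (7.94%) and 1 of 14 in Wbp7+/- cells (8.64%). The median LPS ratio over the 6 regions with a peak in every list was 1.34 in Wbp7-/- cells and 1.13 in Wbp7+/- cells, beside 0.979 and 0.976 over all such regions. Between genotypes the median was 1.20 with LPS and 1.11 untreated, beside 1.04 and 1.03.

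**Figure D4:**
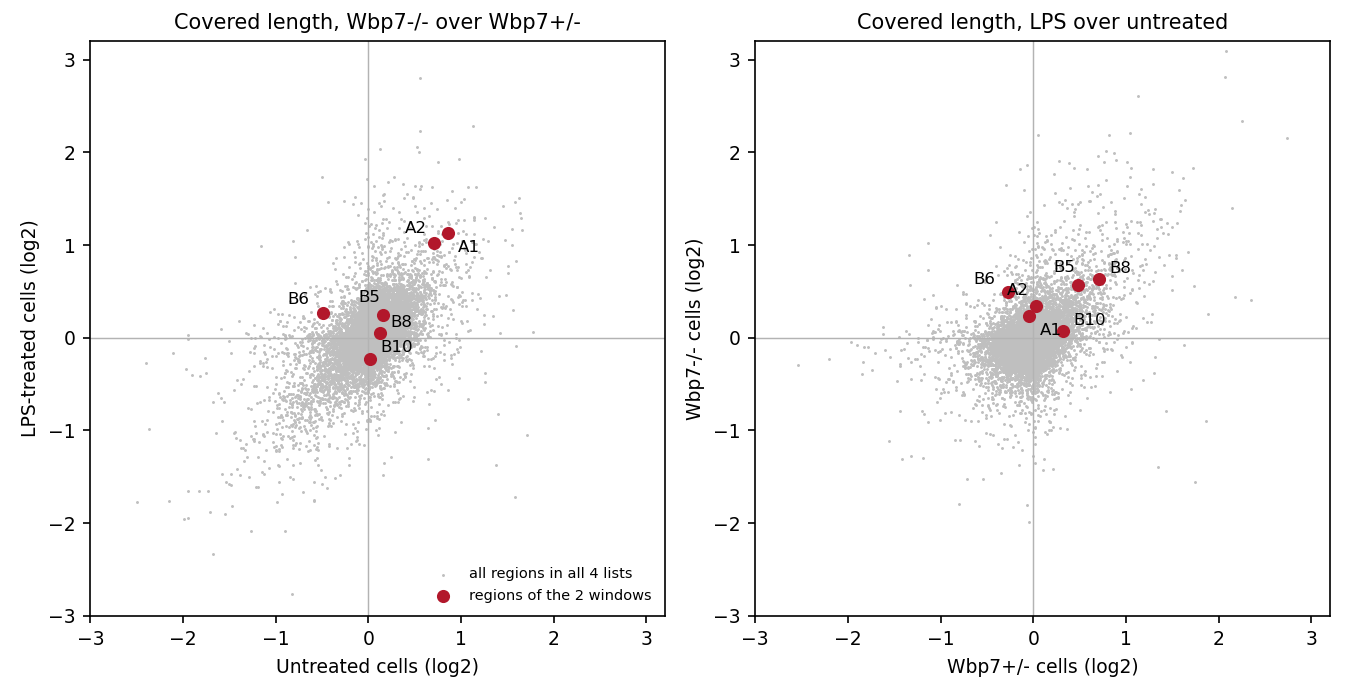
Log2 ratios of covered length for the 12294 regions with a peak in every list (grey) and the 6 of the windows (red). On the left Wbp7-/- over Wbp7+/- is shown for untreated (x) and LPS-treated cells (y), where A1 and A2 lie at 0.86 and 0.71 untreated and at 1.13 and 1.02 with LPS. On the right LPS over untreated is shown for Wbp7+/- (x) and Wbp7-/- cells (y), where B5 and B8 lie between 0.49 and 0.71 on both axes.

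The nearest region before the first window, 15.6 kb away, was called in LPS-treated Wbp7-/- cells alone, with 1258 bp, and the next before it had a peak in every list and lay 1245904 bp from the window. The nearest after that window, 203 kb away, was also called in LPS-treated Wbp7-/- cells alone, with 591 bp, and the next, 560 kb away, had a peak in every list. Around the second window the nearest regions on each side all had a peak in every list, at 41.6 and 52.8 kb before it and at 26.7 and 76.0 kb after it.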

How the data were processed

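H3K4me3 was immunoprecipitated from 1% formaldehyde-fixed macrophages, per the labels' protocols. Reads were aligned with Bowtie to mm9, per the submitters' processing notes. MACS called the peaks of each library separately, per the file headers, where the word input points to an input DNA control. Versions, the threshold and read numbers were not stated in the headers or labels. The authors deposited a start, an end and a score for each peak. The scores run from 50 to 3233.06 and pile up at 3100, and scores of 3100 or above were treated as 1 class. MACS scores are conventionally a multiple of −log10 of a p-value.

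Here, peaks of the 4 lists that overlapped by at least 1 bp were joined into regions over the whole genome. Covered length is the summed width of the peaks of a list in a region. A region was called wider or narrower at a 1.5-fold difference, and gained or lost where a list had no peak. Positions are counted from 1. Groups came from sample titles. No test was run, since each group holds 1 library. The counting was tested on an altered copy of the untreated Wbp7+/- list, with peaks removed, widened or shrunk, in regions that held a single peak of that list. Split and joined peaks were not covered by it. Every region of the windows is named. The windows, members and gene lists were chosen with earlier results of these data known. Upstream sequences came from RefSeq tables. Python 3.11.15, pandas 2.3.3, numpy 2.4.6 and matplotlib 3.10.9 were used. Alternatives were a score minimum of 100, ceiling peaks alone, lists of equal length, windows widened by 20 kb, joining within 1 kb, a lower fold and a fold of 2, spans in place of covered lengths and, added after the data were seen, leaving out the LPS-treated Wbp7+/- list.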

Additional observations from a re-analysis of the deposited data

Results flagged for a closer look

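At 3 regions the covered length with LPS minus that of untreated cells had opposite signs in the genotypes. At A1 it was 616 bp in Wbp7-/- cells and -54 bp in Wbp7+/- cells. At B6 it was 725 bp in Wbp7-/- cells and -424 bp in Wbp7+/- cells. At B7, with no untreated Wbp7-/- peak, it was 801 bp in Wbp7-/- cells and -498 bp in Wbp7+/- cells. With single libraries the difference was not tested. Of all 12294 regions with a peak in every list, 35.9% showed opposite signs, and of the 6 in the windows 2 did. Outlying samples cannot be looked for in groups of 1.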

How the results depend on the processing

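Of 415 values recomputed under the alternatives, 390 stayed within 1.5 times the reported value. That total includes width ratios that neither the fold nor the window size can alter, 33 for each fold and 33 for widened windows. Of the 29 counts and lengths recomputed from ceiling peaks, 18 moved further than 1.5 times. With ceiling peaks alone, the second window held 4 peaks in LPS-treated and 3 in untreated Wbp7-/- cells, and 4 (covering 17538 bp) and 3 in Wbp7+/- cells. The first window then held 0 peaks and 0 bp in both Wbp7+/- lists. The ceiling regions numbered 6, with 3 in all 4 lists, 1 in both LPS lists alone and 2 in both Wbp7-/- lists alone. Regions wider or gained with LPS were 2 in each genotype, none (0) was narrower or lost in Wbp7+/-, and none (0) was narrower or lost in Wbp7-/- against Wbp7+/-, LPS-treated or untreated. Ceiling peaks are a part of each list and can only give fewer peaks. With a score of at least 100, 1 region was in both Wbp7+/- lists alone, and with lists of equal length 1 was in both Wbp7-/- lists alone, where the full lists gave 0. At the lower fold, 2 regions were narrower or lost in untreated Wbp7-/- against Wbp7+/- cells. At a fold of 2, narrower or lost regions were 0 with LPS in Wbp7+/- and 1 in LPS-treated Wbp7-/- against Wbp7+/- cells, and 1 was wider or gained in untreated Wbp7-/- cells. Joining within 1 kb moved the LPS ratio of B10 in Wbp7-/- cells to 1.63. It left 11 regions, 4 of them with peaks in both LPS lists alone. Wider or gained with LPS were then 7 in Wbp7-/- and 6 in Wbp7+/- cells. Between the genotypes, 3 were wider or gained in Wbp7-/- cells with LPS and 2 untreated. Widened windows and spans moved no value beyond 1.5 times, nor did omitting the list of LPS-treated Wbp7+/- cells among the values that can be had without it, which include no comparison of those cells with another group. The 7 counts and 13 width ratios kept without that list come from the other lists alone. Their stability was thus largely fixed beforehand, and they are part of the total above. No paired analysis was possible because the labels number no replicates and the values come from no test; a model with genotype and treatment as additive terms was not fitted. Depths are unknown, so widths and missing peaks cannot be told apart from differences in depth.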

Other observations

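The region 26.7 kb beyond the second window, on chromosome 11 from 83516680 to 83520697, had a peak in every list and was wider with LPS in both genotypes. It covered 2522 bp with LPS and 1354 bp untreated in Wbp7-/- cells, a ratio of 1.86. In Wbp7+/- cells it covered 4018 bp with LPS and 1451 bp untreated, a ratio of 2.77.

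The other 9 regions that shared with A1 and A2 a ceiling score in both Wbp7-/- lists alone and were at least 1.5-fold wider there lay on chromosomes 2, 3, 7, 9, 11, 12 and 15. The highest ratio with LPS was on chromosome 12 from 82118487 to 82121720, with 2649 bp in Wbp7-/- cells and 545 bp in Wbp7+/- cells. Another on chromosome 11, from 98768828 to 98771106, had 2236 bp in Wbp7-/- cells and 1018 bp in Wbp7+/- cells with LPS, and 2184 bp and 1113 bp untreated. No gene is named at these positions, which were picked out after their values were seen.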
